A study of Mus musculus with 35 samples.

Results

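Primary mouse cardiac fibroblasts (CFs) given TGF-β, a fibrotic stimulus, were compared with CFs given IL-17, an inflammatory stimulus, across all genes, in cells that carried a control siRNA (Scrambled). The comparison took the 3 Scrambled TGF-β libraries and the 3 Scrambled IL-17 libraries, 6 of the 27 CF libraries and of the 35 libraries of the whole series, with their tables joined by gene identifier. CFs came from hearts of adult mice by enzymatic dissociation, were kept by their adherence to collagen-coated plates and grew in DMEM with 10% FBS. The IL-17 cells had siRNA for 24 h and then IL-17 for 24 h. For the TGF-β cells the labels give the stimulus, but their protocol text names IL-17 only. The study states a TGF-β dose for other assays of such cells, while the dose and length used for these libraries, and whether IL-17 was given to them too, are not given in the sources used here. Cxcl1, Cxcl5, Ccl2 and Zc3h12a, which IL-17 is known to induce, were far above the untreated cells in the TGF-β libraries too. Other genes that stood above the untreated cells with IL-17 did not do so with TGF-β. Nfkb1 was near the untreated mean there, and Sele and Il33 were under it. Whether IL-17 was present was not tested. TGF-β alone and TGF-β together with IL-17 cannot be told apart, and "with TGF-β" here means the libraries that carry that label. No label says whether the 3 libraries of a group came from separate cultures or animals. Levels in 3 Scrambled libraries without a stimulus (untreated) are given for reference, and the same comparison was read in cells with IAMP-siR-1 and with IAMP-siR-2, siRNAs against 4930523C07Rik, the gene of the micropeptide IAMP, with 3 libraries in each group. The TGF-β libraries stand in a table of their own, as do the IL-17 libraries, so stimulus and table cannot be told apart in any difference given here.

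TGF-β binds a pair of receptor kinases that phosphorylate SMAD2 and SMAD3, and in fibroblasts it is known for turning on smooth muscle actin and contractile fibres, collagens and the enzymes that cross-link them, which is the myofibroblast state of a scar. IL-17 binds a receptor of IL17RA and IL17RC chains and acts through the adaptor Act1 on NF-κB, IκBζ and C/EBP factors. In fibroblasts it is known for chemokines that draw neutrophils and monocytes, for IL-6 and for acute-phase and antimicrobial proteins. Fibroblasts of the heart respond to both, and both states occur in an injured heart.

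The IL-17 libraries held 115275270 to 117110809 estimated counts and the TGF-β libraries 105068333 to 106947519. Levels are given as CPM, estimated counts relative to the TMM-scaled size of the library, and every fold change is log2 of TGF-β over IL-17, so that a positive value is a higher level with TGF-β. The groups also differed as whole libraries. Mitochondrial transcripts took 2.49% to 2.55% of a library with IL-17, 3.36% to 3.67% with TGF-β and 2.52% to 2.63% in untreated Scrambled cells. Most of 68 replication-dependent histone genes have transcripts without a poly(A) tail. These transcripts summed to 156.1 to 160.7 CPM with IL-17, 356.5 to 391.4 CPM with TGF-β and 169.7 to 192.5 CPM in untreated Scrambled cells. In the knockdown cells the sums were 96.92 to 149.1 CPM with IL-17 and 336.7 to 407.6 CPM with TGF-β. Short transcripts leaned to TGF-β and long ones to IL-17, with a median log2 fold change of 0.322 in the 20% of genes with the shortest transcripts and −0.435 in the 20% with the longest. GC-poor genes leaned to IL-17, at a median of −0.383 in the lowest 20%, and GC-rich genes to TGF-β, at 0.373. Between IL-17 and untreated Scrambled libraries these trends were small. The median log2 difference of IL-17 over untreated was −0.0523 for the shortest and 0.0109 for the longest 20%. It was 0.00422 for the lowest and −0.0444 for the highest GC. A gene was taken as detected above 18 estimated counts (3 read pairs), and hepatocyte transcripts were detected in IL-17 replicates 1 and 3, with all 15 hepatocyte markers, for 2 markers in IL-17 replicate 2 and for 1 to 4 of them in the TGF-β libraries. All 15 were also detected in replicate 3 of the untreated Scrambled cells. In the knockdown cells they were all detected in TGF-β libraries, replicate 2 with IAMP-siR-1 and replicate 3 with IAMP-siR-2. The part of these properties in the differences between stimuli was not tested gene by gene. A correction for length and GC, or leaving out the IL-17 libraries with hepatocyte transcripts, ended some calls and added others. List counts that fell by 2 or more, or rose by 2 or more with the correction, are given with both values.

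Of 55487 genes, 22359 passed the filter on low counts and were tested. With a call set at a log2 fold change of 1 or more in either direction and an adjusted p of 0.05 or less in edgeR's quasi-likelihood test, 2600 genes (11.6% of those tested) were called higher with TGF-β and 2202 (9.85%) higher with IL-17, 4802 (21.5%) in all. At any fold change 12547 genes (56.1%) had an adjusted p of 0.05 or less, 28.3% of the tested genes on the TGF-β side and 27.8% on the IL-17 side. The median log2 fold change of all tested genes was 0.026, and the central 50% of genes lay between −0.62 and 0.71. In 7377 genes (33%) every TGF-β library lay above every IL-17 library, and in 6940 (31%) the order was the reverse. These shares are the background for every gene list that follows. In bulk RNA a lower level can mean fewer cells of a type or less RNA per cell, which cannot be told apart.

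**Figure D1:**
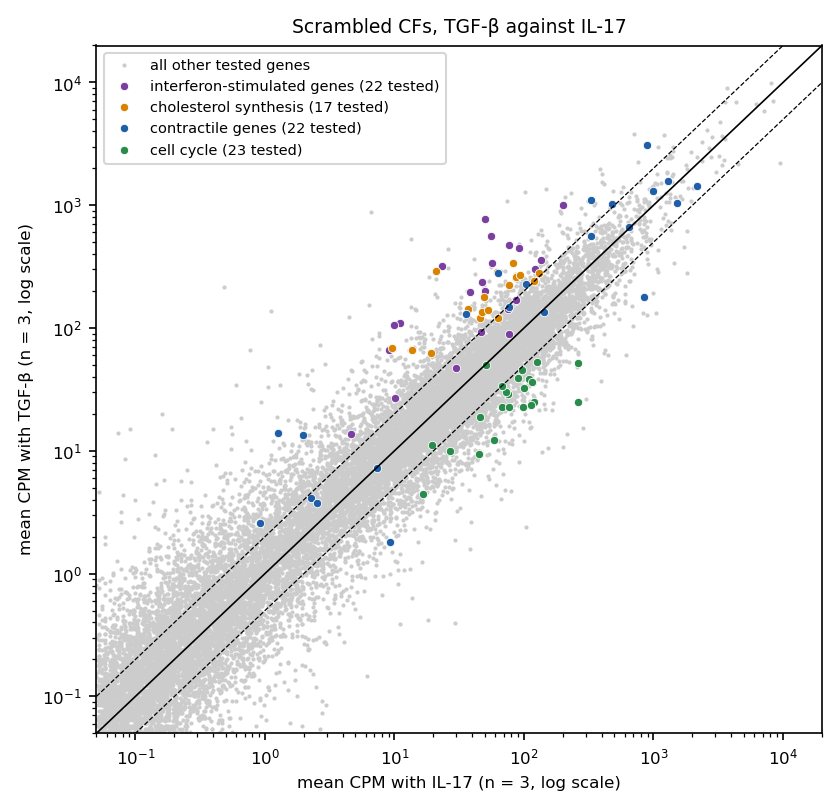
Mean CPM of the 3 Scrambled IL-17 libraries (x axis, log scale) against the mean of the 3 Scrambled TGF-β libraries (y axis, log scale), 1 point per tested gene with at least 0.05 CPM in both. The solid line marks equal levels and the dashed lines a log2 difference of 1; cholesterol synthesis and interferon-stimulated genes lie mostly above the lines, cell cycle genes mostly below, and contractile genes on both sides.

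Smooth muscle actin and its partners stood at higher levels with TGF-β. Acta2, the smooth muscle actin by which myofibroblasts are recognised, was at 907, 882 and 902 CPM in the 3 IL-17 libraries and at 3167, 3019 and 3024 CPM in the 3 TGF-β libraries. The groups did not overlap, and the log2 fold change was 1.77 (SE 0.0338, adjusted p 1.06e-28 in edgeR). Tagln (transgelin), which binds actin filaments, went from 335, 324 and 325 CPM to 1119, 1071 and 1097 CPM, a log2 fold change of 1.74 (SE 0.0448). Myl9, the regulatory light chain of smooth muscle myosin, was at 62.9, 63.6 and 64.2 CPM with IL-17 and at 291, 267 and 279.8 CPM with TGF-β (2.14, SE 0.0647). Cnn1 (calponin), low in every group, was at 1.16, 1.45 and 1.18 CPM with IL-17 and at 14.1, 11.8 and 15.7 CPM with TGF-β (3.45). Lmod1, which starts actin filaments in smooth muscle, Synpo2, Pdlim7, Actg2 and the tropomyosin Tpm1 were also called, with log2 fold changes of 2.79, 1.86, 1.15, 1.49 and 1.09. Against this stood a pair of adhesion genes. Vcl (vinculin), which ties actin to focal adhesions, was at 836, 851 and 859.6 CPM with IL-17 and only 166, 187 and 185 CPM with TGF-β (−2.24, SE 0.049), and the integrin chain Itga8 was lower too (−2.36). Of 22 contractile genes, 9 were called higher with TGF-β and 2 higher with IL-17, with a median of 0.83 beside 0.026 for all genes. The untreated cells had 1047 CPM of Acta2 and 1005 CPM of Vcl on average, so that both genes were near the IL-17 level without a stimulus. Among 9 cofactors of SRF and YAP, through which actin tension reaches the nucleus, 1 was called, Mrtfb, which was higher with IL-17 (−1.07). With levels corrected for length and GC, Tpm1 (0.98), Pdlim7 (0.76) and Mrtfb (−0.70) were under the fold threshold.

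The 250 bases before the start of each gene were read from RefSeq (GRCm38.p6). The CArG box, which SRF binds at many muscle genes, was searched on both strands, and 1.47% of 32851 promoters held one. It was found in 3 of the 19 contractile genes with a promoter in the table, Cnn2, Myl9 and Vcl. Myl9 (chr2:156775214-156775463, plus strand) and Vcl (chr14:20929148-20929397, plus strand) are printed because each holds 1 box, in capitals, while their levels differed in opposite directions. The match starts 161 bases before the start of Myl9 and 227 bases before that of Vcl. The window of Acta2 held no exact match, which says only that these letters are not there.
Myl9: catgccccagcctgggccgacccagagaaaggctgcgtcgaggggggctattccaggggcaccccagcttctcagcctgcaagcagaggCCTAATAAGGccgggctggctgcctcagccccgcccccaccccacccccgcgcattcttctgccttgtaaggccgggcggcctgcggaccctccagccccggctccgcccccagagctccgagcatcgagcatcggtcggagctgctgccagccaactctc
Vcl: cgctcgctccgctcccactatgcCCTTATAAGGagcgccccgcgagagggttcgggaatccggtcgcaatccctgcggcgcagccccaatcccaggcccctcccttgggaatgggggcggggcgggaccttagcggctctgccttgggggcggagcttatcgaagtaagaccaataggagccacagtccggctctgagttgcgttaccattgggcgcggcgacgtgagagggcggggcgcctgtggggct

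Collagens were split by type. None of 11 fibrillar collagen genes was called in either direction, at a median of −0.0979. That median turned to 0.453 without the IL-17 libraries that held hepatocyte transcripts and to 0.18 both with a filter of 60 estimated counts in every library of a group and with estimated counts divided by 6. At any fold change 4 genes were higher with TGF-β and 3 higher with IL-17. Col1a1, the main chain of collagen I, was at 3553, 3614 and 3492 CPM with IL-17 and at 6799, 6760 and 7104 CPM with TGF-β. Its groups did not overlap, but at 0.95 (SE 0.0299, adjusted p 3.8e-23 in edgeR) it stayed short of the fold threshold. Col1a2 had a log2 fold change of 0.55 and Col3a1 of −0.18. The 11 genes summed to 13070 to 13230 CPM with IL-17 and 17890 to 19040 CPM with TGF-β. In the knockdown cells some fibrillar collagens were called. With IAMP-siR-1, 1 was higher with TGF-β and 2 higher with IL-17, and with IAMP-siR-2 the counts were 3 and 1. Network and basement membrane collagens leaned to IL-17, with 5 of 18 called higher there and 2 with TGF-β (5 and 4 with the correction for length and GC). Col6a3, a chain of the beaded collagen VI, had 81.3, 76.9 and 82 CPM with IL-17 and 4.38, 4.48 and 5.34 CPM with TGF-β (−4.08, SE 0.0871), and its partner chains Col6a1 and Col6a2 were lower as well (−1.32 and −1.11). Col4a1, the main basement membrane collagen, was at 4503, 4546 and 4484 CPM with IL-17 and at 2145, 2085 and 2313 CPM with TGF-β (−1.05, or −0.96 and not called when libraries were scaled to reference genes). Col8a2, a short-chain collagen, went the other way, from 0.551, 0.574 and 0.525 CPM to 16, 15.9 and 15.3 CPM (4.84).

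Of 17 enzymes that mature and cross-link collagen, 4 were called higher with TGF-β and none higher with IL-17 (median 0.442). Lox (lysyl oxidase), which cross-links collagen and elastin, was at 1159, 1241 and 1237 CPM with IL-17 and at 3605, 3947 and 3554 CPM with TGF-β (1.61, SE 0.0394). Loxl1, Loxl3 and Bmp1, a protease that trims procollagen, followed with 1.57, 1.26 and 1.07 (Bmp1 0.97 with the correction for length and GC). Matricellular and elastic matrix genes were called in both directions, 6 of 23 higher with TGF-β and 4 higher with IL-17. Higher with TGF-β were Cthrc1, a marker of activated fibroblasts (12.9, 13.7 and 13.4 against 112, 101 and 98.6 CPM, 2.97), the cartilage protein Comp (2.64), the elastic fibre protein Fbln5 (1.89) and the CCN proteins Ccn5 (2.50) and Ccn4 (1.61). The 4 genes higher with IL-17 were Thbs1, Tnc, Tgfbi and the fibrillin Fbn2 (−1.38). Thbs1 (thrombospondin 1), which can activate latent TGF-β, was at 9502, 9360 and 9504 CPM with IL-17 and at 2016, 2354 and 2243 CPM with TGF-β (−2.10, SE 0.0437). Tnc (tenascin C) was at 1840, 1722 and 1846 CPM with IL-17 and at 290.0, 276 and 284 CPM with TGF-β (−2.67). Tgfbi, named for its induction by TGF-β, was at 64.3, 67.7 and 65.6 CPM with IL-17 and at 23.8, 25.2 and 27.8 CPM with TGF-β (−1.36). Postn (periostin) at −0.45, Fn1 (fibronectin) at −0.24 and Ccn2 (CTGF) at 0.34 were not called.

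Of the small leucine-rich proteoglycans, which bind collagen fibrils, 5 were higher with TGF-β, while genes of hyaluronan synthesis and binding were mostly higher with IL-17. Bgn (biglycan) was at 3632, 3687 and 3701 CPM with IL-17 and at 9200, 8786 and 9026 CPM with TGF-β (1.29, SE 0.0327). Dcn, Fmod, Prelp and Aspn of the same family were called at 1.57, 1.63, 1.53 and 2.62. Has1 and Has3, which make hyaluronan, its receptors Cd44 and Hmmr, and Vcan, which binds it, were lower with TGF-β, at −3.51, −1.93, −1.45, −1.41 and −1.49. Has1 and Has3 were low even with IL-17, at 4.01, 3.6 and 3.53 CPM and at 1.09, 1.21 and 0.911 CPM. Has2, which also makes hyaluronan, was not called. Acan (aggrecan), which also binds hyaluronan, was higher (3.59). In all, 6 of 15 tested members of this list were higher with TGF-β and 5 higher with IL-17, of which Vcan lost its call under the correction for length and GC (−0.79).

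Of 23 genes for matrix-degrading enzymes and their inhibitors, 12 were higher with TGF-β and none with IL-17 (median 1.09). Mmp3 (stromelysin 1), also a known IL-17 target, was at 401, 397 and 442 CPM with IL-17 and at 1479, 1468 and 1491 CPM with TGF-β (1.84, SE 0.0506), against 395 CPM on average in untreated cells. The macrophage elastase Mmp12 (3.29), the aggrecanase Adamts5 (2.05) and Adamts12 (1.75) were among the others. The inhibitors Timp1 (1.18) and Timp3 (1.09) were called higher as well. With the correction for length and GC, 9 genes were higher with TGF-β and 1 with IL-17, and Timp1 was at 0.75.

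**Figure D2:**
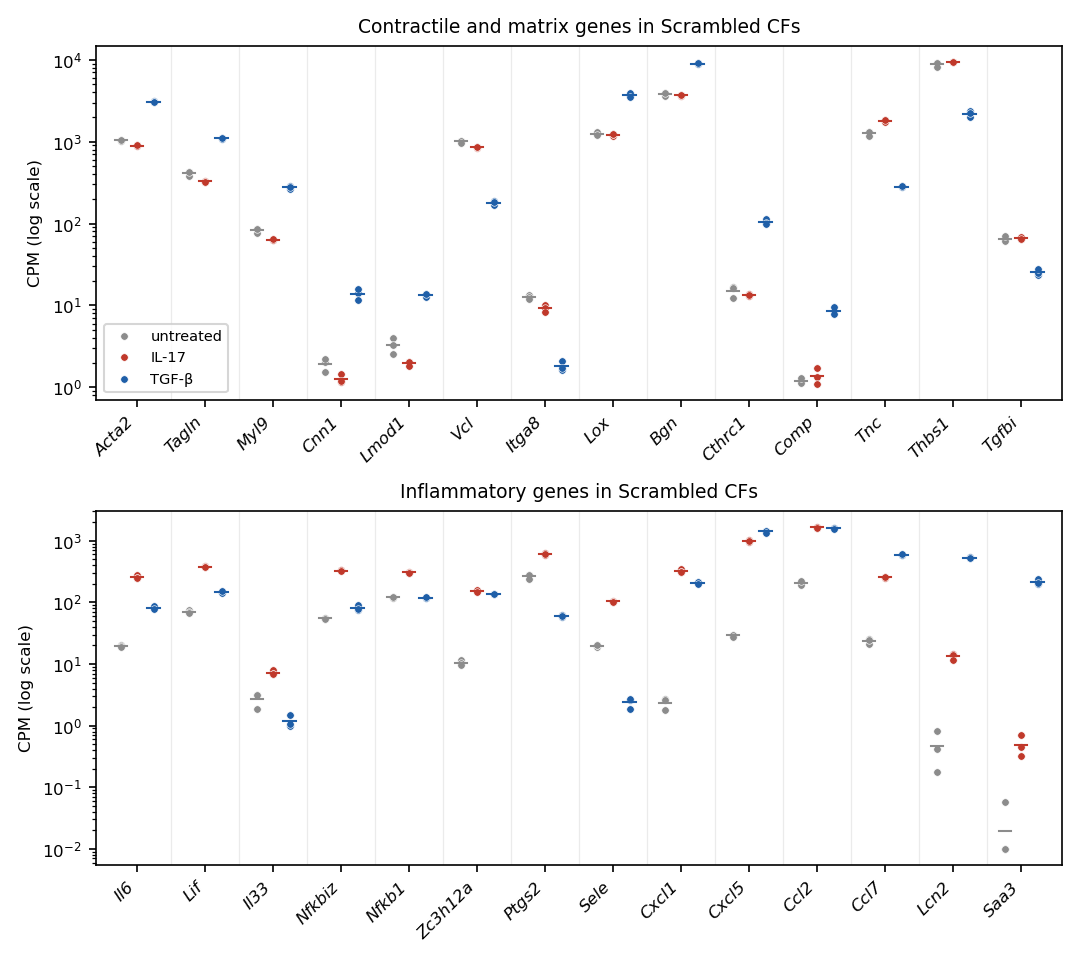
CPM of each Scrambled library (points, log scale) and group means (bars) for untreated, IL-17 and TGF-β cells, 3 libraries each, for contractile and matrix genes (top) and inflammatory genes (bottom); a library at 0 is drawn at 0.01 CPM. The 3 libraries of a group lie close together for most genes, Acta2 and Lox are highest with TGF-β, Il6 and Ptgs2 are highest with IL-17, and Ccl2 is at like levels with both stimuli, above the untreated cells.

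Within the TGF-β pathway itself, 5 of 17 tested genes were higher with TGF-β and 4 higher with IL-17. Of the 4 latent TGF-β binding proteins, which store the ligand in the matrix, 3 were called higher with TGF-β. Ltbp2 was at 24.9, 25.7 and 27.5 CPM with IL-17 and at 445, 419 and 462 CPM with TGF-β (4.08, SE 0.0575), and Ltbp3 and Ltbp4 were at 1.28 and 1.09. The ligand gene Bmp4 was higher too (1.60). The type I receptor Tgfbr1 was at 135, 130.1 and 139 CPM with IL-17 and at 27.6, 31.2 and 30.2 CPM with TGF-β (−2.19, SE 0.0473), and the co-receptor Tgfbr3 was lower as well (−1.38), while the other 4 receptors of the list were not called. Inhba, the activin A subunit, was at 839, 794 and 841 CPM with IL-17 and at 126, 142 and 129 CPM with TGF-β (−2.64), and the BMP antagonist Grem1 was lower (−3.20). Tgfb1 itself, at 0.57, was not called, and Ltbp4 (0.78) lost its call under the correction for length and GC.

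Targets and feedback genes of SMAD signalling gave 3 genes of 21 higher with TGF-β and 5 higher with IL-17, at a median of −0.29. With the correction for length and GC the median was −0.00403, while 3 genes were higher with TGF-β and 7 higher with IL-17. Pmepa1, a feedback inhibitor that TGF-β induces, was at 192, 199 and 191 CPM with IL-17 and at 886, 866 and 861 CPM with TGF-β (2.17, SE 0.0354). Nox4, a hydrogen peroxide source of myofibroblasts, was also higher (2.23). Id1, a target of BMP signalling that TGF-β can repress, was at 71.5, 70.2 and 64.7 CPM with IL-17 and at 12.4, 14.4 and 16.2 CPM with TGF-β (−2.26), and Id2 and Id3 were lower with it (−1.76 and −1.66). Smad3, the signal carrier, was lower with TGF-β (−1.13). Smad7, the inhibitory SMAD, was at 117, 115 and 113 CPM with IL-17 and at 57.5, 56.5 and 58.7 CPM with TGF-β, just short of the fold threshold. It was called, at −1.24, with the correction for length and GC.

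The genes of the IL-17 receptor and its adaptors differed little, with 1 of 18 called in each direction, Il17rb higher with TGF-β (1.15) and Tab3 higher with IL-17 (−1.08). Neither call was stable. Under the correction for length and GC, Tab3 was at −0.52 and no gene of this list was called, and Il17rb was not called without IL-17 replicate 3 (0.79) or without TGF-β replicate 1, 2 or 3 (1.14 to 1.16). Il17ra, the chain that every IL-17 receptor shares, had a log2 fold change of −0.60. NF-κB feedback genes were also near the background, 2 of 17 higher with TGF-β and 3 higher with IL-17. Nfkbiz, which encodes IκBζ and carries much of the IL-17 response, was at 332, 334 and 321 CPM with IL-17 and at 75.8, 89.1 and 77.8 CPM with TGF-β (−2.02, SE 0.0415), with 54.9 CPM on average in untreated cells. Nfkb1, the p105 precursor, was at 309, 306 and 303 CPM with IL-17 and at 117, 119 and 121 CPM with TGF-β (−1.36), near the untreated mean of 121 CPM. Zc3h12a (regnase-1), an RNase that IL-17 induces as feedback, stood above the untreated mean of 10.5 CPM with both stimuli, at 152, 158 and 146 CPM with IL-17 and 138, 136 and 138 CPM with TGF-β. The deubiquitinase Tnfaip3 (A20) and Nfkbie were higher with TGF-β (1.24 and 1.65).

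The gp130 cytokines Il6 and Lif, which signal through STAT3, were higher with IL-17. Il6 was at 280.3, 252 and 253 CPM with IL-17 and at 81.5, 86.2 and 78.8 CPM with TGF-β, against an untreated mean of 19.4 CPM. The stimuli did not overlap, with a log2 fold change of −1.67 (SE 0.0447, adjusted p 6.55e-25 in edgeR). Lif was at 389, 369 and 373 CPM with IL-17 and at 148, 141 and 154 CPM with TGF-β (−1.35). The alarmin Il33 (−2.62) and Tslp (−1.31) were lower with TGF-β as well. Tnfsf11 (RANKL) was at 2.45, 2.1 and 2.85 CPM with IL-17 and at 0 in every TGF-β library. That is at least 15-fold lower when set against the floor of detection. Il1rn, Il18 and Tnf were low with both stimuli. Il1rn was at 0.626, 0.466 and 0.476 CPM with IL-17 and at 1.86, 2.02 and 1.55 CPM with TGF-β. Il18 was at 0.684, 0.699 and 0.657 CPM and 1.63, 2.17 and 1.87 CPM, and Tnf at 0.267, 0.291 and 0.246 CPM and 2.44, 2.43 and 2.91 CPM. Of 19 inflammatory cytokines, 8 were nevertheless called higher with TGF-β, among them Il1rn (1.79), Il18 (1.47) and Tnf (3.27), and 5 higher with IL-17, and without the IL-17 libraries that held hepatocyte transcripts 6 and 5 were.

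Most chemokines that were called were higher with TGF-β. No CXC chemokine was called higher with IL-17, and 4 of 13 tested were called higher with TGF-β, while at any fold change 3 were higher with IL-17. Cxcl1, the prototype IL-17 chemokine for neutrophils, was at 344, 311 and 309 CPM with IL-17 and at 212, 212 and 201 CPM with TGF-β, against 2.37 CPM in untreated cells on average. The stimuli did not overlap, and its log2 fold change of −0.62 was under the fold threshold. Cxcl5 was at 1028, 959 and 1006 CPM with IL-17 and at 1462, 1451 and 1361 CPM with TGF-β (0.51, not called), from an untreated mean of 29.2 CPM. Cxcl16 was called, at 112, 109 and 111 CPM with IL-17 and 424, 411 and 417 CPM with TGF-β (1.92). Of the CC and CX3C chemokines, 8 of 17 tested were higher with TGF-β and 1, Ccl9 (−1.66), with IL-17. Ccl2, the main monocyte chemokine, was at 1624, 1684 and 1621 CPM with IL-17 and at 1621, 1596 and 1538 CPM with TGF-β, a log2 fold change of −0.05 that was not called, while untreated cells had 210.0 CPM on average. Its neighbour Ccl7 was higher with TGF-β, at 256, 251 and 259.8 CPM and 588, 589 and 602 CPM (1.21). Ccl5 was at 0.985, 0.558 and 0.435 CPM with IL-17 and at 17.8, 18.6 and 18.8 CPM with TGF-β (4.80), and Ccl8 at 0.835, 0.757 and 1.56 CPM and 33.3, 33.5 and 32.1 CPM (4.97). Macrophages also make several of these chemokines, and 5 of 12 macrophage markers were higher with TGF-β and 1 lower. Their levels summed to 62.64 to 64.69 CPM in the IL-17 libraries and to 166.8 to 175.5 CPM in the TGF-β libraries, with Adgre1 (F4/80) at 3.01 and Lyz2 at 1.59, and none of the 12 was at or under the floor in either group. Their part in the chemokine values was not tested.

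The acute-phase genes that IL-17 and NF-κB control diverged widely. Lcn2 (lipocalin 2), a known IL-17 target, was at 14.6, 13.7 and 11.6 CPM with IL-17 and at 533, 538 and 524 CPM with TGF-β (5.32, SE 0.162), and untreated cells had 0.467 CPM on average. Saa3 (serum amyloid A3) was at 0.442, 0.316 and 0.698 CPM with IL-17 and at 236, 203 and 210.1 CPM with TGF-β (8.79). Ptx3 (pentraxin 3) had the reverse order, 542, 543 and 539 CPM with IL-17 and 113, 124 and 117 CPM with TGF-β (−2.20), with 161 CPM on average in untreated cells. In this list 5 of 16 tested genes were higher with TGF-β and 1 with IL-17 (6 and 3 with the correction for length and GC). The liver forms Saa1, Saa2 and Orm1 were not called, and they were present mainly in the IL-17 libraries that held hepatocyte transcripts.

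Complement genes differed in both directions. C3, the central component, was at 80.5, 60.9 and 80 CPM with IL-17 and at 1040, 1026 and 1187 CPM with TGF-β (3.88, SE 0.146). Cfb (factor B) was at 7.5, 5.85 and 5.81 CPM with IL-17 and at 149, 149 and 163 CPM with TGF-β (4.59). The proteases C1s1 and C1ra were at 3.32 and 3.21, C2 at 2.86 and C4b at 2.40. Serping1, which inhibits C1, was at 384, 411 and 374 CPM with IL-17 and at 2009, 1881 and 2018 CPM with TGF-β (2.34). Lower with TGF-β were the C1q chain genes C1qa (−1.47) and C1qc (−2.51), which macrophages make. In all, 9 of 18 tested genes were higher with TGF-β and 5 higher with IL-17.

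Genes of prostaglandin metabolism and adhesion were called in both directions, 4 of 13 higher with IL-17 and 3 higher with TGF-β. Ptgs2 (COX-2), which starts prostaglandin synthesis, was at 637, 590.0 and 601 CPM with IL-17 and at 58.3, 62.7 and 59.1 CPM with TGF-β (−3.34, SE 0.0646), and the untreated mean of 265 CPM lay between them. Sele (E-selectin) was at 107, 101 and 103 CPM with IL-17 and at 1.89, 2.58 and 2.67 CPM with TGF-β (−5.45), and the other 2 adhesion genes of the list were not called. Of the prostaglandin E receptors, Ptger4 was lower with TGF-β (−1.94), Ptger3 was called higher and Ptger2 was not called. Ptges (1.31), which makes prostaglandin E2, and Hpgd (2.03), which degrades it, were higher with TGF-β. Nos2 (inducible nitric oxide synthase) was at 19.4, 20.3 and 17.5 CPM with IL-17 and at 10.2, 11.4 and 12 CPM with TGF-β, from 0.0691 CPM in untreated cells, and its −0.77 was not called. Endothelial markers did not follow Sele. Of 11, 5 were higher with TGF-β and 1 lower, and their sum was 74.16 to 77.01 CPM with IL-17 and 139.4 to 142.8 CPM with TGF-β.

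The consensus NF-κB site was searched in the same promoter windows on both strands, and 7.25% of all promoters held one. Among CXC chemokines with a promoter in the table it was found in 4 of 11, Cxcl1, Cxcl2, Cxcl3 and Cxcl10. The promoters of Il6 (chr5:30012864-30013113, plus strand), lower with TGF-β, and of Cxcl10 (chr5:92348890-92349139, minus strand), higher with TGF-β at 56.2, 37.4 and 19.6 CPM against 66, 117 and 95.4 CPM (1.30), are printed with the matches in capitals. The call of Cxcl10 rests on libraries that spread widely, since without IL-17 replicate 2, IL-17 replicate 3, TGF-β replicate 2 or TGF-β replicate 3 its adjusted p in edgeR was 0.0502 to 0.117, and without IL-17 replicate 3 its log2 fold change was 0.98. In Cxcl10 the site nearer to the start is a pair of overlapping matches. One match starts 44 bases before the start of Il6, and those of Cxcl10 start 159, 104 and 103 bases before its start.
Il6: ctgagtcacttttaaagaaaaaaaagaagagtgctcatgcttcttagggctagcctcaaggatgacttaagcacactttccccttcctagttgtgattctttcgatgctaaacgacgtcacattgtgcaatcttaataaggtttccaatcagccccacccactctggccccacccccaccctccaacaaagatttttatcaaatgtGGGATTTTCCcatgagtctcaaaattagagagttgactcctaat
Cxcl10: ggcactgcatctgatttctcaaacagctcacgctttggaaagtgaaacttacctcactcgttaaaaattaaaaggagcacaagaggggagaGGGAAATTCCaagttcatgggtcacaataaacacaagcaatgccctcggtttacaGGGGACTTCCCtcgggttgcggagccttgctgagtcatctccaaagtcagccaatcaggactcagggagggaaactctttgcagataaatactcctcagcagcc

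**Figure D3:**
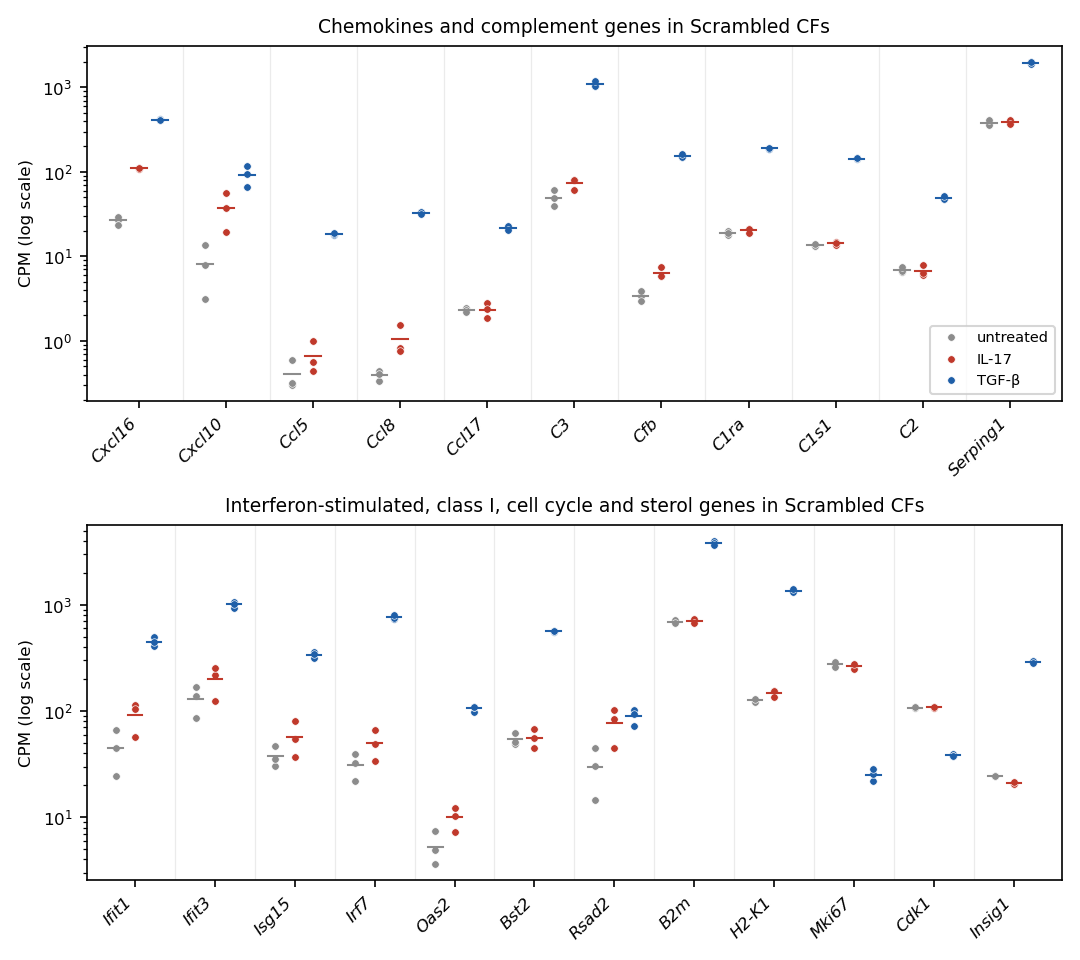
CPM of each Scrambled library (points, log scale) and group means (bars) for untreated, IL-17 and TGF-β cells, 3 libraries each, for chemokines and complement genes (top) and for interferon-stimulated, class I, cell cycle and sterol genes (bottom). Ccl5, Cfb, Irf7 and H2-K1 lie higher in all 3 TGF-β libraries than in any other, Rsad2 overlaps between the stimuli, and Mki67 and Cdk1 are lowest with TGF-β.

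Interferon-stimulated genes, an antiviral programme, made up one of the most one-sided lists. Of 22, 17 were higher with TGF-β (15 without the IL-17 libraries that held hepatocyte transcripts) and none with IL-17, and the median was 2.29. With the correction for length and GC, 19 were higher with TGF-β. The summed level of all 22 was 926.8 to 1595 CPM with IL-17, 5599 to 6455 CPM with TGF-β and 643.6 to 1059 CPM in untreated cells. Irf7, the factor that amplifies the response, was at 49.3, 66.2 and 33.7 CPM with IL-17 and at 743, 759 and 801 CPM with TGF-β (3.95, SE 0.249). Isg15, a ubiquitin-like modifier, was at 54, 80.1 and 36.9 CPM with IL-17 and at 316, 361 and 342 CPM with TGF-β (2.57), and Ifit3, which binds foreign RNA, at 218, 255 and 124 CPM and 932, 1073 and 1023 CPM (2.34). IL-17 replicate 3 was the lowest of its group in each of these 3 genes. Rsad2 (viperin), at 102, 83.8 and 45.1 CPM with IL-17 and 71.7, 102 and 93.1 CPM with TGF-β, overlapped between the groups and was not called. Class I antigen presentation, which interferon also raises, was higher as well: B2m, the shared light chain, was at 726, 736 and 669.9 CPM with IL-17 and at 4009, 3792 and 3659 CPM with TGF-β (2.43), and H2-K1 at 153, 155 and 134 CPM and 1354, 1313 and 1400 CPM (3.20).

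The core of the interferon-stimulated response element, TTTC and TTTC with any 2 bases between them, on either strand, was found in 2.98% of all promoters and in 9 of the 17 interferon-stimulated genes with a promoter in the table. In the window of Isg15 (chr4:156200819-156201068, minus strand), printed because Isg15 is among the most used readouts of interferon, 3 matches in a row, in capitals and read on the opposite strand, start 78, 72 and 66 bases before the start of the gene.
Isg15: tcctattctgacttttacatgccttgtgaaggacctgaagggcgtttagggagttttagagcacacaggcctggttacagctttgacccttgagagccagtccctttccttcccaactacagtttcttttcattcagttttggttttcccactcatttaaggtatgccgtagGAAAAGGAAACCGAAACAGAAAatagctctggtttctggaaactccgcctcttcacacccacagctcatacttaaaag

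Genes of the cell cycle had the opposite pattern. Of 23, 20 were higher with IL-17 and none with TGF-β, at a median of −1.55. Mki67, the proliferation marker, was at 266, 249.8 and 275 CPM with IL-17 and at 21.8, 25.5 and 28.2 CPM with TGF-β (−3.39, SE 0.0884). Cdk1, the mitotic kinase, was at 109, 108 and 109 CPM with IL-17 and at 39.1, 38 and 37.8 CPM with TGF-β (−1.50), and Top2a and Ccnb1 were at −2.34 and −2.24. The replication helicase subunits Mcm2 to Mcm6 were called too. The 3 genes not called included Mcm7 (−0.99) and Ccne1 (−0.83), and with the correction for length and GC both were called and Mcm6 (−0.90) was not. Untreated cells, with 275 CPM of Mki67 and 108 CPM of Cdk1 on average, stood near the IL-17 cells. Ccnd1 (cyclin D1), which growth factors induce at the start of the cycle, was at 1056, 1044 and 1053 CPM with IL-17 and at 128, 136 and 131 CPM with TGF-β (−3.00). The summed replication histone transcripts given above were in contrast higher with TGF-β. The CHR element, TTTGAA, at which cell cycle genes are repressed in resting cells, was found in 16% of all promoters and in 6 of 19 cell cycle genes with a promoter in the table, Mki67, Top2a, Ccnb2, Cdk1, Cdc20 and Mcm2. In Cdk1 (chr10:69352913-69353162, minus strand), printed for a gene of the most one-sided list on the IL-17 side, the matches, in capitals, start 71 and 15 bases before the start.
Cdk1: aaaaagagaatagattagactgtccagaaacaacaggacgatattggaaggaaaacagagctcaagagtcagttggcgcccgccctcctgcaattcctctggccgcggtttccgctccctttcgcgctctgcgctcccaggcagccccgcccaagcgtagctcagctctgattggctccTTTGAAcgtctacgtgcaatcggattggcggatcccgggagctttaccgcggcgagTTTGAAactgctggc

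Cholesterol synthesis was higher with TGF-β almost throughout. Of 17 genes, 16 were called higher, the exception being Idi1 at 0.94, and the median was 1.59. Insig1, which holds the SREBP activator in place when sterols are plentiful and is itself an SREBP target, was at 20.4, 20.7 and 21.7 CPM with IL-17 and at 293, 298 and 283 CPM with TGF-β (3.80, SE 0.0543). Hmgcs1, which makes the substrate of the rate-limiting step, was at 82, 91.5 and 84.8 CPM and 251, 276 and 252 CPM (1.59), and Mvd was at 2.85. The sterol regulatory element was searched as ATCAC and CCAC with any 1 base between them, which 0.192% of all promoters hold, and was found in 0 of the 11 cholesterol genes with a promoter in the table. Genes of the amino acid response leaned the same way, 6 of 16 higher with TGF-β and 1 higher with IL-17. Atf4, its transcription factor, was at 1.25 (0.83 and not called with the correction for length and GC), Trib3 at 3.08, Ddit3 (CHOP) at 1.82 and the proline enzyme Pycr1 at 2.35. Psat1, of serine synthesis, was lower with TGF-β (−2.14). Glycolysis and HIF-1 targets gave 1 of 24 higher with TGF-β, Ndrg1 (2.22), and 2 higher with IL-17, Ldha (−1.09) and Egln3 (−1.97). With the correction for length and GC, 1 was higher with TGF-β and 5 higher with IL-17. Of 16 NRF2 targets, 2 were called in each direction.

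Markers of CF identity were present in both groups and differed in both directions, 9 of 21 higher with TGF-β and 5 higher with IL-17. Pdgfra, the receptor by which fibroblasts are sorted, was at 443, 423 and 444 CPM with IL-17 and at 119, 127 and 136 CPM with TGF-β (−1.78, SE 0.039). Cd34 was at 408, 415 and 414 CPM with IL-17 and at 66.1, 61.1 and 62.1 CPM with TGF-β (−2.71), and Tbx20, a cardiac transcription factor, at 1090, 1084 and 1076 CPM and 269, 294 and 294 CPM (−1.92). Mfap4, a microfibril protein, was at 6.19, 6.53 and 7.16 CPM with IL-17 and at 912, 831 and 895 CPM with TGF-β (7.05), and Mfap5, Dpep1, Ly6a, Pdgfrb and Meox1, a factor of activated CFs, were higher too (2.12, 2.49, 2.19, 1.05 and 1.24). The last was at 0.96 with the correction for length and GC, and Pdgfrb lay at the threshold without TGF-β replicate 3. The markers Tcf21 and Vim were not called (−0.58 and −0.65). Of 10 cardiomyocyte genes tested, 3 were higher with TGF-β (1 without the IL-17 libraries that held hepatocyte transcripts) and 1 higher with IL-17, and Myh6, Myh7 and Mb did not pass the filter. The gene higher with IL-17, Tnnt2 (cardiac troponin T), was at 69.3, 75.9 and 70.2 CPM with IL-17 and at 4.92, 4.48 and 4.88 CPM with TGF-β (−3.92). Among the mesothelial and epicardial markers 4 of 8 were higher with IL-17, Krt19 at −2.13 and Upk1b at −1.86 among them, and 1 higher with TGF-β.

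Secreted regulators of growth and lipid genes changed member by member. Of 14 genes of the IGF axis, 3 were higher with TGF-β, Igfbp3 (1.55), Igfbp7 (1.46) and Stc2 (1.77), and 3 with IL-17, Igfbp4 (−1.48), Igf2r (−1.45) and Stc1 (−3.39). Of 19 WNT ligands and antagonists, 4 were higher with TGF-β and 5 higher with IL-17. The WNT readouts Axin2 and Lef1 were both lower with TGF-β (−1.50 and −1.87). Of 12 tested adipocyte and lipid genes, Apod (5.50), Apoe (1.35) and Cd36 (1.24) were higher with TGF-β. Pparg, the regulator of fat cell formation, and its target Angptl4 were lower (−1.79 and −1.89). With the correction for length and GC, Igfbp7 (0.83) and Apoe (0.73) were under the fold threshold.

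**Figure D4:**
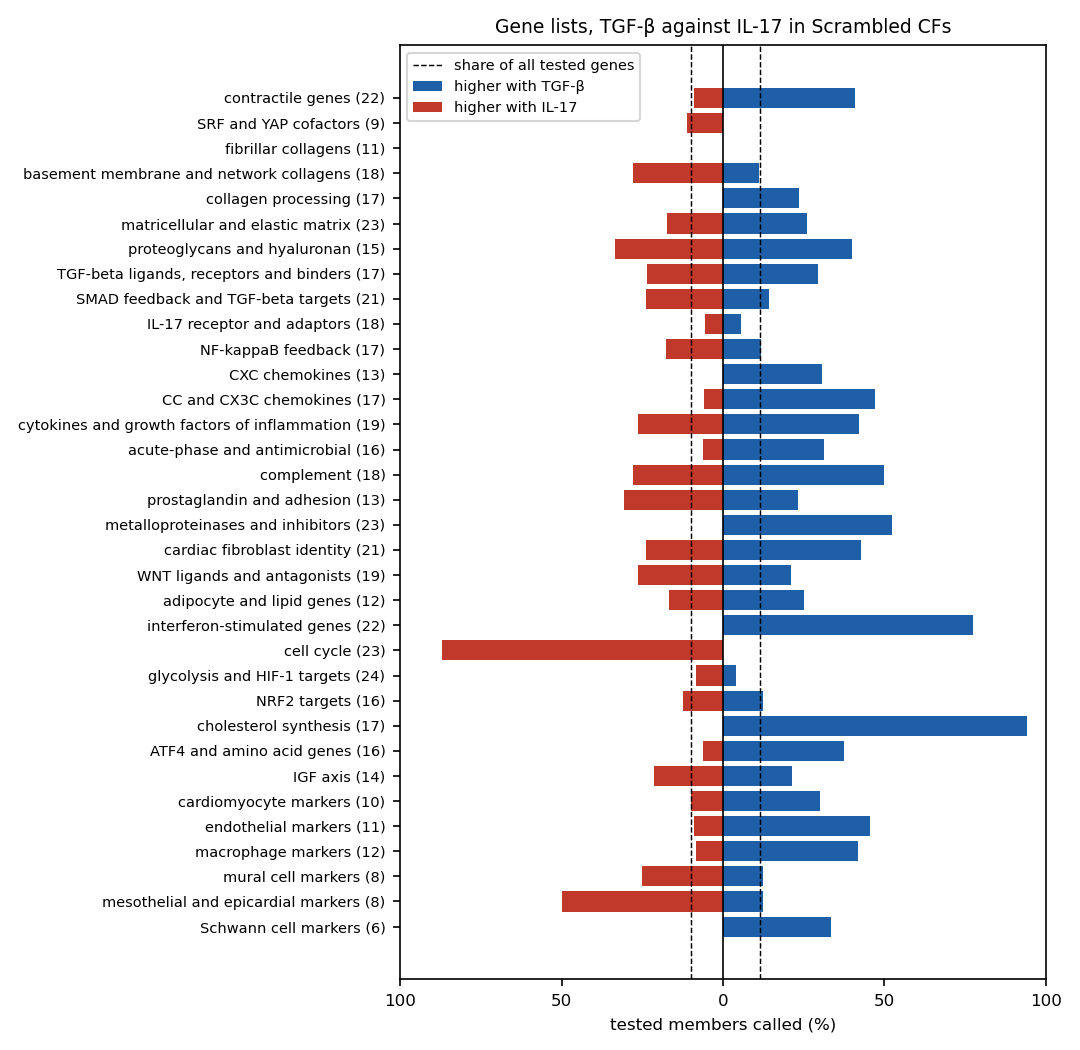
Share of the tested members of each gene list (number tested in parentheses) called higher with TGF-β (right) or higher with IL-17 (left) in Scrambled CFs, in percent; dashed lines are the shares over all tested genes, 11.6% and 9.85%. Cholesterol synthesis and interferon-stimulated genes reach farthest to the right and cell cycle genes to the left, while fibrillar collagens have no bar.

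The largest log2 fold changes were ranked among genes whose symbol is not a predicted-gene name (Gm number or Rik). The genes ranked were called in the same direction under each of the siRNAs. Their groups did not overlap in Scrambled cells, and the higher group had at least 10 CPM. The 15 with the largest log2 fold change toward TGF-β were Saa3, Cilp, Mfap4, Npy1r, H2-Q6, H2-Q7, Smtnl2, Apod, Lcn2, H2-Q5, Megf6, Ccl8, Col8a2, Ccl5 and Adamtsl2. Cilp, a cartilage matrix protein that activated CFs secrete, was at 0, 0 and 0.222 CPM with IL-17 and at 15.3, 13.1 and 13.5 CPM with TGF-β. Adamtsl2, which binds latent TGF-β binding protein, was at 4.08, 4.84 and 4.46 CPM with IL-17 and at 122, 115 and 132 CPM with TGF-β (4.78). H2-Q5, H2-Q6 and H2-Q7 are near-identical class I genes whose reads can be split between copies, so their separate values are uncertain. The 15 farthest toward IL-17 were Sele, Nr4a3, Serpinb2, Tnfsf15, Rgs2, Hmga2, Pi15, Col6a3, Ptn, Dusp5, Serpina3f, Tnnt2, Pkp1, Itgb3 and Esm1. Hmga2, a chromatin protein of growing cells, was at 203, 192 and 203 CPM with IL-17 and at 11.1, 11.5 and 9.33 CPM with TGF-β (−4.23). Itgb3, the integrin β3 chain, was at 157, 147 and 159 CPM with IL-17 and at 9.26, 10.8 and 11.5 CPM with TGF-β (−3.88). Nr4a3, Rgs2 and Dusp5, at −5.43, −4.43 and −3.97, are early response genes of growth factor and calcium signalling. Serpina3f was at 207, 234 and 202 CPM with IL-17 and at 13.3, 13 and 14.8 CPM with TGF-β (−3.97), with 9.43 CPM on average in untreated cells.

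By absolute difference in CPM, the 10 called genes with the largest rise toward TGF-β were Bgn, B2m, Lox, Acta2, Igfbp7, Serping1, Ctsd, Dcn, Lgals3bp and H2-K1. The lysosomal protease Ctsd (cathepsin D) was at 1384, 1469 and 1390 CPM with IL-17 and at 3017, 2875 and 2984 CPM with TGF-β (1.06, or 0.63 and not called with the correction for length and GC, and 0.999 and not called without the IL-17 libraries that held hepatocyte transcripts). The 10 toward IL-17 were Thbs1, Col4a1, Tnc, Itpripl2, Nid1, Map4k4, Ccnd1, Akap12, Tbx20 and Tm4sf1. Nid1 (nidogen 1), which links laminin to collagen IV, was at 1858, 1810 and 1823 CPM with IL-17 and at 601, 610.1 and 639.6 CPM with TGF-β (−1.57).

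The IAMP gene, 4930523C07Rik (chromosome 1, 160044382 to 160080208, GRCm38), was at 18.6, 20.8 and 16.8 CPM with IL-17 and at 19.1, 19.5 and 22.6 CPM with TGF-β in Scrambled cells. The groups overlapped, and the log2 fold change of 0.12 (SE 0.104, adjusted p 0.334 in edgeR) was not called. With the correction for length and GC the log2 fold change was 0.474 (adjusted p 0.000284 in edgeR), under the fold threshold. Without the correction, the log2 fold change in cells with IAMP-siR-1 and IAMP-siR-2 was 0.73 and 0.89.

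The same comparison in the knockdown cells used other libraries of the same tables, so it repeats the stimulus but not the separation from the table. With IAMP-siR-1, 2704 genes (12.1%) were higher with TGF-β and 1926 (8.61%) higher with IL-17, and with IAMP-siR-2 the numbers were 2712 (12.1%) and 1884 (8.43%). Of the 2600 genes higher with TGF-β in Scrambled cells, 1798 were called so with IAMP-siR-1, 69.15% of the Scrambled and 66.49% of the IAMP-siR-1 calls. With IAMP-siR-2 it was 1674 genes, 64.38% of the Scrambled and 61.73% of the IAMP-siR-2 calls. Of the 2202 genes higher with IL-17, 1360 (61.76% of the Scrambled and 70.61% of the IAMP-siR-1 calls) and 1189 (54% and 63.11% of the IAMP-siR-2 calls) were shared. The opposite call was made for 3 of the genes higher with TGF-β in Scrambled cells and 6 of those higher with IL-17 with IAMP-siR-1, and for 11 and 9 with IAMP-siR-2. Across all 3 siRNA conditions 1394 genes were higher with TGF-β and 973 higher with IL-17.

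Whether a fold change differed between siRNA conditions was not tested, and the values are given side by side. Interferon-stimulated genes had medians of 2.29 in Scrambled, 3.77 in IAMP-siR-1 and 4.03 in IAMP-siR-2 cells, and all 22 were called higher with TGF-β under both siRNAs. Rsad2, not called in Scrambled cells, was at 3.41 and 2.91, and Isg15 at 4.00 and 4.08. Cholesterol synthesis had 16, 17 and 9 of 17 genes higher with TGF-β, and the cell cycle list 20, 16 and 12 of 23 higher with IL-17. Acta2 was at 1.77, 0.87 and 1.50, and contractile genes had medians of 0.83, 0.537 and 0.59. Tgfbr1, at −2.19 in Scrambled cells, was at −0.94 and −0.89 and was called under neither siRNA, and Timp3, at 1.09, was at 0.03 and −0.02. Il6 was at −1.87 and −2.33, Ptgs2 at −3.29 and −3.01, Lcn2 at 4.62 and 4.59, and Lox at 0.66 and 1.37.

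**Figure D5:**
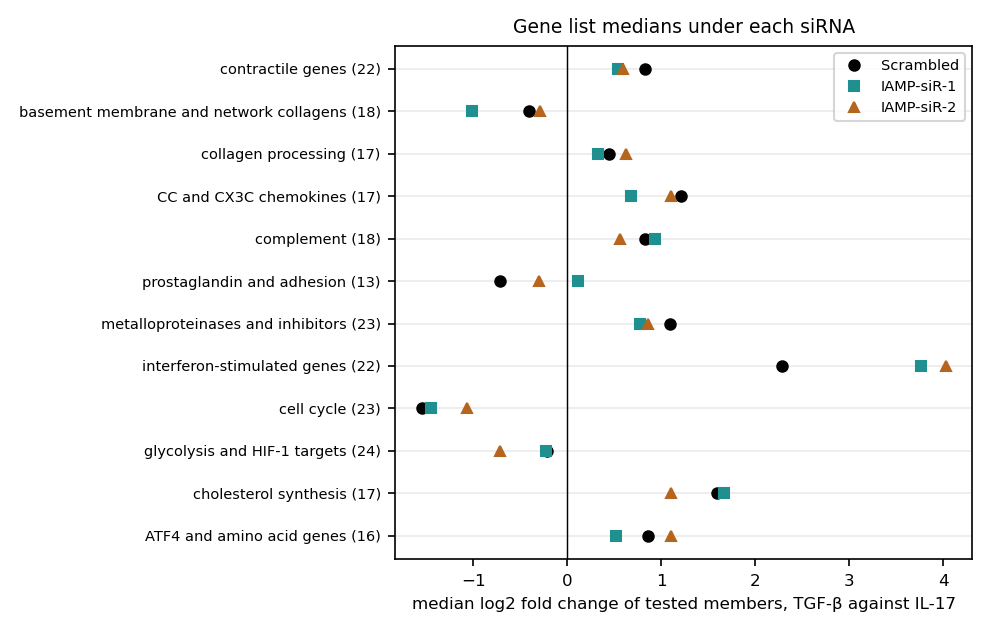
Median log2 fold change (x axis) of the tested members of 12 gene lists, TGF-β against IL-17, in CFs with each siRNA. Interferon-stimulated genes are at 2.29, 3.77 and 4.03, cholesterol synthesis and contractile genes are above 0 in each condition, and cell cycle genes below 0 in each; the differences between conditions were not tested.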

How the data were processed

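RNA-Seq of 27 CF libraries was used, in 9 groups of 3 given by the labels (3 siRNAs, each without stimulus, with IL-17 and with TGF-β), and the comparison rests on 6 of them. Per the labels and the Methods, the authors selected mRNA with oligo(dT) beads, trimmed reads with cutadapt, aligned them to GRCm38 with HISAT2 and quantified genes with StringTie. The authors deposited whole numbers per gene without normalization, which were read as estimated counts derived from StringTie's coverage. A read pair stood for up to 6 estimated counts, so counting error is larger than the totals imply. The strand setting, the annotation release and how StringTie's output became whole numbers are not given in the sources used here, and overlapping genes may share reads.

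The 3 tables were joined on the identifiers of 55487 genes, and 55227 of them were matched to GENCODE vM21. R 4.3.3, edgeR 4.0.16 and limma 3.58.1 were used. All 27 libraries went into 1 fit of 9 groups with TMM, filterByExpr and robust glmQLFit, and the p values of each contrast were adjusted by Benjamini-Hochberg over the 22359 genes tested. Calls needed an adjusted p no higher than 0.05 and a log2 fold change of 1 or more in size. Stimulus and table are the same split, so table could not be a term. Replicates have no stated source, so the p values measure the spread between these samples, which may be technical. Standard errors are the log2 fold change divided by the root of the F statistic. The fit was tested on simulated data.

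The alternatives were DESeq2 1.42.0, RLE size factors, library totals, scaling to 20 reference genes, other filters, a threshold of a 1.5-fold change, smaller fits, division of the estimated counts by 6, the replicate number as a block and leaving out each library. A correction for GC content and transcript length (an offset per library) and leaving out IL-17 replicates 1 and 3 together were added after seeing the data. Gene lists were written from general knowledge. The comparison, the lists and the alternatives were chosen with earlier results of these data known. Genes named are list members with the largest changes or levels, the 15 largest changes and the 10 largest CPM differences in each direction, and 4930523C07Rik. Genes with predicted-gene names were left out of the ranking by change. Other list members enter only counts and medians, and some genes are not reported here. Promoters were read from RefSeq, and motifs were searched as exact letters in the 250 bases before the gene start. The authors' own comparisons were not used.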

Additional observations from a re-analysis of the deposited data

Results flagged for a closer look

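For 6 of the genes named, the TGF-β and IL-17 libraries were in opposite order in different siRNA conditions, with no overlap between the groups in either condition. The difference between conditions was not tested. Ccl2 had a log2 fold change of −0.05 in Scrambled cells, 0.19 in IAMP-siR-1 cells and 1.10 in IAMP-siR-2 cells. Its order in Scrambled cells was close to a tie, with 1621.48 CPM in the lowest IL-17 and 1621.47 CPM in the highest TGF-β library. Cxcl1, at −0.62 in Scrambled cells, was at 0.74 with IAMP-siR-2. The matrix genes Fn1 (−0.24) and Postn (−0.45) were at 0.78 and 0.35 with IAMP-siR-2. Nos2, at −0.77 in Scrambled cells, was at 0.45 with IAMP-siR-1. The cystine importer gene Slc7a11, called at −1.06 in Scrambled cells, was at 0.15 with IAMP-siR-2. Of the values with either IAMP siRNA, that of Ccl2 with IAMP-siR-2 was called.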

How the results depend on the processing

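The number of genes called in Scrambled cells stayed between 3930 and 5055 under every alternative except a threshold of a 1.5-fold change, where it was 7740 (3996 higher with TGF-β and 3744 higher with IL-17). In IAMP-siR-1 and IAMP-siR-2 cells that threshold gave 7536 and 7575 genes. Leaving out 1 library at a time gave 4462 to 4685 genes in Scrambled, 4361 to 4419 in IAMP-siR-1 and 4293 to 4427 in IAMP-siR-2 cells, and DESeq2 gave 5055, 4934 and 4845. With the replicate number as a block the counts were 4782, 4565 and 4513, and all 212 named genes kept their side of the threshold. Deviations of same-numbered TGF-β and IL-17 libraries correlated at 0.082, 0.064 and 0.039 over 13330 genes. Those of libraries with different numbers correlated at −0.1114 to 0.0552. Values this weak cannot decide whether replicate numbers pair the libraries. With the correction for length and GC 4334 genes were called (2220 and 2114), and of the 212 named genes 16 lost their call and 4 gained one. Without IL-17 replicates 1 and 3, which leaves 1 IL-17 library that is assumed to vary like the other groups, 3930 genes were called, and Cxcl10, Il17rb, Slc7a11 and Ctsd lost their calls. In that setting the log2 fold changes of Orm1, Saa1 and Saa2 turned to 7.43, 4.95 and 5.18 and that of 4930523C07Rik to −0.0376, none of them called. Other reversals were of values near 0, for Ccl2 when scaled to reference genes (0.0313), for Postn with the correction (0.0935) and for Rsad2 without IL-17 replicate 3 (−0.0727, with 0.462 as the highest value when 1 library was left out). Scaling to reference genes moved the median of all genes to 0.11 and gave 2911 genes higher with TGF-β and 1928 higher with IL-17. Depth limits the low genes most, since a read pair is worth up to 6 estimated counts, and with division by 6 the count was 4229.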

Other observations

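Among 16 targets of NRF2, the factor of the oxidative stress response, the glutathione transferases Gsta3 and Gstm1 were higher with TGF-β (1.98 and 1.71), and the thioredoxin reductase Txnrd1 and the cystine importer Slc7a11 were higher with IL-17 (−1.39 and −1.06). Slc7a11 lost its call under the correction for length and GC (−0.36) and without IL-17 replicate 1 (−0.998). The antagonist Dkk3 and the ligand Wnt9a of the WNT lists were higher with TGF-β (1.46 and 2.37), and the antagonist Dkk2 higher with IL-17 (−2.29). Of 20 reference genes commonly used to scale expression, 2 were called, B2m higher with TGF-β and the transferrin receptor Tfrc higher with IL-17, at 62.7, 62.7 and 63.1 CPM against 16.1, 17.7 and 17.8 CPM (−1.87).

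Other cell types left small signals. Of 8 tested mural cell markers 1 was higher with TGF-β (3 with the correction for length and GC) and 2 higher with IL-17. Of 6 Schwann cell markers 2 were higher with TGF-β. None of the 3 lymphocyte markers tested was called. Of 5 tested erythroid markers, 3 haemoglobin genes were called higher with IL-17, and without IL-17 replicates 1 and 3, the libraries with hepatocyte transcripts, none was called.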
